A study of Homo sapiens with 12 samples.

Results

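The comparison described here set cells given Wnt3a and Wnt5a together against untreated cells, across all genes on the array. Its members were the 3 arrays titled as treated with both ligands and the 3 arrays titled untreated, 6 of the 12 arrays of the series. The other 6 arrays, 3 with Wnt3a alone and 3 with Wnt5a alone, entered the same model to estimate the spread and the effect of the BeadChip. All groups were CHRF288-11, a human megakaryoblastic leukaemia cell line, and all were kept for 16 h without serum first. Cells of the combination then received recombinant Wnt3a at 150 ng/mL with recombinant Wnt5a at 1200 ng/mL, and untreated cells received neither. The labels put all 4 groups at 8 h and name no carrier control for the proteins. The series calls the 3 arrays of a group biological replicates. Nothing says that they were separate cultures, so p-values measure the spread between these arrays, which may be partly technical. The cell line is a single line, and its response may differ from that of primary megakaryocytes.

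Wnt3a is the usual activator of the canonical Wnt pathway, in which a Frizzled receptor with LRP5 or LRP6 stops the destruction of beta-catenin, and beta-catenin then joins TCF and LEF factors on target genes. Wnt5a is the usual non-canonical ligand, acting through receptors such as ROR2 and RYK on calcium and cell polarity, and in some cells it opposes beta-catenin signalling. Megakaryocytes are the bone marrow cells that make platelets by extending proplatelets, and the line used here expresses part of that programme.

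The combination arrays had mean signals before normalization of 312.14, 331.36 and 347.48, and the untreated arrays 315.52, 378.32 and 373.53. Between 12911 and 13401 probes were detected on the combination arrays and between 12511 and 13674 on the untreated arrays. All 3 combination arrays and Untreated 1 lay on the second BeadChip, while Untreated 2 and 3 lay on the first. The untreated group therefore met the combination within a BeadChip through 1 array only, and the fitted differences use a BeadChip term estimated from all groups. Of the 12 megakaryocyte markers, 10 were tested and all 10 were detected on every combination and untreated array, among them ITGA2B, ITGB3, GP9 and GATA1, while PF4 and PPBP were not tested. The summed linear level of those 10 was 23195 to 24731 with both ligands and 23407 to 25219 in untreated cells, with 0 called higher and 2 called lower (GFI1B and GP1BA). Markers of other cells had sums of 12516 to 12801 against 11732 to 12378 for monocytes and granulocytes (12 of 24 tested; the defining genes MPO and ELANE were not), and of 2481 to 2581 against 2670 to 2789 for lymphocytes (9 of 24 tested). Globin and haem genes summed to 44625 to 46371 with both ligands and 45227 to 47769 in untreated cells (21 of 31 tested), and fibroblast, endothelial and epithelial genes to 1276 to 1434 with both ligands and 1199 to 1349 in untreated cells (5 of 22 tested). The part of these small shifts in any result was not tested.

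Both ligands together changed 1092 of 14051 tested probes, 7.77%, at an adjusted p under 0.05 in limma with Benjamini-Hochberg adjustment over all tested probes. Of these, 625 were higher (4.45% of the tested probes) and 467 were lower (3.32%). The changes were mostly small. Among called probes the median difference was 0.45 on the log2 scale for those that were higher and -0.41 for those that were lower, and 28 rose and 6 fell by at least 2-fold. The median over all tested probes was -0.01. The array values of the combination and of the untreated cells did not overlap for 968 of the 1092 called probes, against 23.1% of all tested probes, and after adjustment for the BeadChip they were apart for all 1092, against 34.1%. All 1092 had the same sign when the combination was set against Untreated 1 alone, on the second BeadChip. The calls came from these same arrays, Untreated 1 included, so the separation and the shared sign are no independent check. The number of calls rested much on that array: 238 probes passed without Untreated 1, 655 without the third combination array and 717 without the first Wnt3a array. A further limit holds for the whole comparison, since in bulk RNA fewer cells of a kind and less RNA per cell cannot be told apart.

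**Figure D1:**
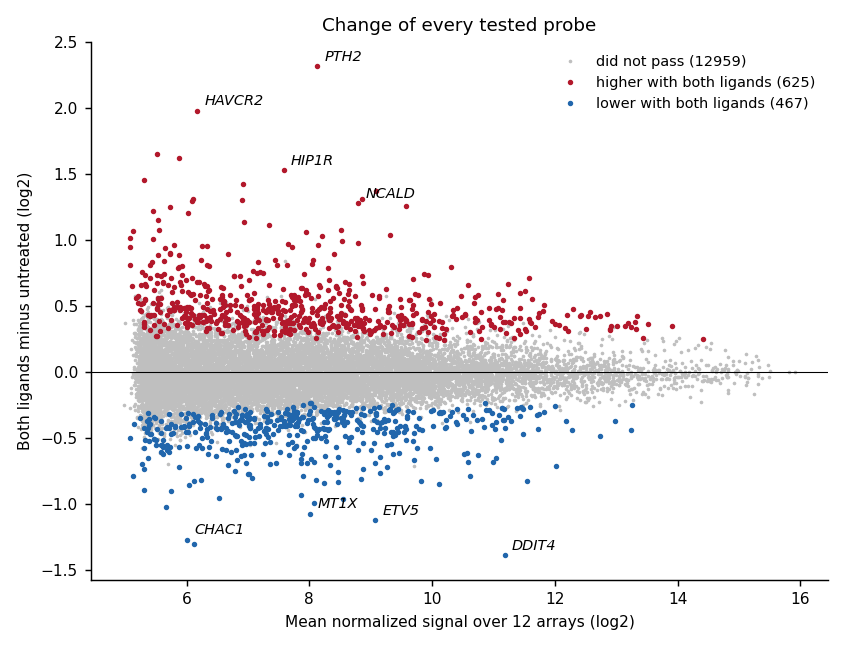
Difference between both ligands and untreated cells (log2, y axis) against the mean normalized signal over the 12 arrays (log2, x axis), 1 point per tested probe. The 625 probes that were higher and the 467 that were lower are coloured, and the largest rises (PTH2, HAVCR2) lie farther from 0 than the largest fall (DDIT4).

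The largest rise was that of PTH2, which encodes tuberoinfundibular peptide, a ligand of the second parathyroid hormone receptor. Its normalized signals were 8.999, 8.96 and 9.06 on the log2 scale with both ligands, against 6.65, 7.06 and 6.84 in untreated cells. All 3 combination arrays lay above all untreated arrays, and the difference was 2.32 ± 0.09 (SE), a 5.00-fold rise with a 95% confidence interval of 2.12 to 2.52 on the log2 scale (limma, adjusted p = 1.04e-07). HAVCR2, which encodes the inhibitory receptor TIM-3, had 6.90, 6.98 and 7.25 with both ligands, against 4.97, 5.53 and 5.18 in untreated cells. It was detected on 1 of 3 untreated arrays, so the size of its difference of 1.98 ± 0.14 (limma, adjusted p = 1.81e-05) depends on the background correction. HIP1R, an endocytic adaptor that links clathrin to actin, had 8.32, 8.32 and 8.33 with both ligands and 6.96, 6.59 and 6.78 in untreated cells. The groups were far apart, with a difference of 1.53 ± 0.12 (limma, adjusted p = 2.65e-05).

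4 further annotated genes of the 15 largest rises were detected on every array of both groups. NCALD, a neuronal calcium sensor, rose by 1.37 ± 0.10 on the log2 scale, with 9.64, 9.60 and 9.69 under both ligands against 8.28, 8.20 and 8.31 in untreated cells. AGPAT4, an enzyme that acylates lysophosphatidic acid, rose by 1.31 ± 0.09, with 9.35, 9.51 and 9.45 against 8.17, 8.27 and 8.20. GPR183, the oxysterol receptor that guides B cells, rose by 1.30 ± 0.11, with 7.46, 7.53 and 7.51 under both ligands against 6.24, 6.27 and 6.32 in untreated cells. VASH1, a tubulin carboxypeptidase also known as an angiogenesis inhibitor, rose by 1.26 ± 0.12, with 10.31, 10.17 and 10.28 against 9.03, 8.89 and 9.10. In none of these 4 genes did an untreated array reach the lowest combination array. The 15 were chosen among probes whose BeadChip-adjusted values did not overlap, so this separation adds no support.

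4 of the 15 were detected on all 3 combination arrays and not well above background on any untreated array, so only a lower bound of the fold is given. The bound divides the combination mean by the mean of a floor per untreated array. That floor is the dimmest signal still detected on the array, or the gene's own if higher, and the bound carries no BeadChip adjustment and no sampling error. UNC5B, a netrin receptor, was at least 1.68-fold higher with both ligands, with a mean of 6.21 against a measured mean of 4.70. HBZ, the embryonic zeta globin, was at least 1.75-fold higher, with means of 6.27 and 5.16. CEP112, a centrosomal protein, was at least 1.42-fold higher, with means of 5.97 and 4.64, and LOC644846, for which no function is annotated, at least 1.59-fold higher, with means of 6.13 and 4.84. Among the remaining rises of the 15, HS.562084, an unannotated transcript, was detected on every array of both groups (1.43 on the log2 scale). The others were LRRC75A (1.31) and the chemokine genes CCL4L1 (1.30) and CCL4L2 (1.21), all 3 detected on 2 of 3 untreated arrays.

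**Figure D2:**
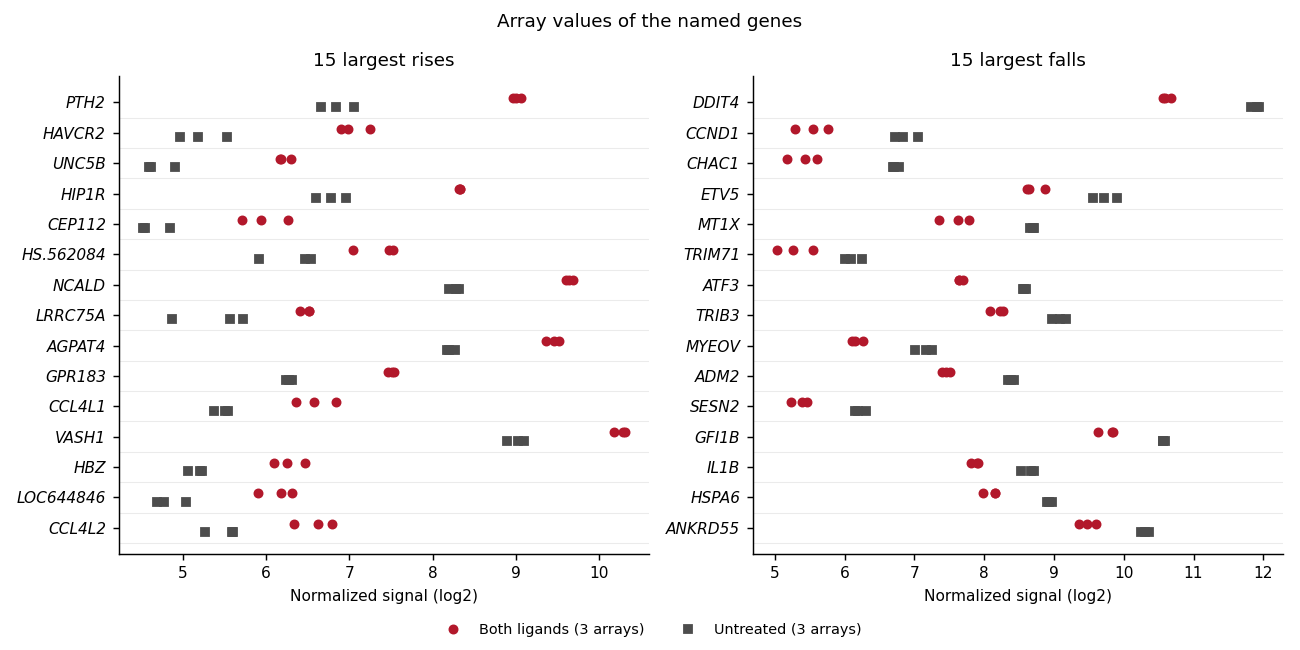
Normalized signal (log2, x axis) of the 15 genes with the largest rises and the 15 with the largest falls, 1 symbol per array, both ligands drawn above untreated cells. In all 30 genes the 3 combination arrays lie wholly on 1 side of the 3 untreated arrays. The genes were chosen among probes whose BeadChip-adjusted values did not overlap, so this separation was largely set by the choice.

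The falls were led by genes of the integrated stress response, the programme that the factor ATF4 switches on when amino acids run short or proteins misfold. DDIT4, an inhibitor of the growth kinase mTORC1, had 10.67, 10.60 and 10.57 with both ligands, against 11.94, 11.91 and 11.83 in untreated cells. The lowest untreated array lay above the highest combination array, and the difference was -1.39 ± 0.10 on the log2 scale (limma, adjusted p = 1.60e-05). CHAC1, an enzyme that degrades glutathione, had 5.60, 5.43 and 5.18 with both ligands, where it was detected on 2 of 3 arrays, and 6.70, 6.70 and 6.78 in untreated cells, a difference of -1.27 ± 0.14 (limma, adjusted p = 0.000322). TRIB3, a pseudokinase that dampens the stress response, fell by 0.97 on the log2 scale, with 8.27, 8.08 and 8.22 against 9.18, 8.97 and 9.09. ATF3, a stress-induced transcription factor, fell by 1.00, with 7.64, 7.69 and 7.64 against 8.57, 8.56 and 8.59. Combination and untreated arrays were apart in each of these 4 genes, which the rule that chose the largest falls made likely.

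Of the 28 tested genes of the ATF4 list, 14 fell and 2 rose, against 3.12% of the 11059 tested genes that fell and 4.96% that rose (8.07% in all), counted with 1 probe per gene. Counts of the other lists can be read against the same shares. The lists were chosen with earlier results of these data known, so these contrasts are descriptive. The ATF4 list's median difference was -0.42. ADM2, a vasodilator peptide, fell by 0.93, SESN2, a leucine sensor upstream of mTORC1, by 0.90 (detected on 1 of 3 combination arrays), and DDIT3, the factor CHOP, by 0.81. CEBPB and GPT2, named after their values were seen, fell by 0.83 and 0.77. ATF4 itself, a gene regulated mainly in its translation, had a difference of -0.13 ± 0.08 by its brighter probe that did not pass (limma, adjusted p = 0.346). Its dimmer probe fell by 0.31 ± 0.08 (limma, adjusted p = 0.0376), a call lost in 9 of the 12 fits without an array, with adjusted p up to 0.2. ASNS, asparagine synthetase, fell by 0.47 ± 0.08 by its bright probe, but a dimmer probe of the gene had a difference of 0.85 ± 0.40 that did not pass, and the mean of both probes gave 0.19 (limma, adjusted p = 0.653). Of the 14 falls, 10 kept their call whichever array was left out. Without Untreated 1 the calls of CBS, CEBPG, GDF15 and the risen KLHL24 and CTH were lost (adjusted p between 0.0851 and 0.502), CBS in 4, GDF15 in 2 and CTH in 8 of the 12 fits that left out 1 array. EIF2S2 fell by 0.43 and lost its call without the first (adjusted p = 0.0545) or the third combination array (adjusted p = 0.0549). CTH was called on 1 of its 2 tested probes.

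Some genes that supply amino acids to protein synthesis fell, while most did not pass. Of 12 tested amino acid transporters 5 fell and 7 did not pass, with a median of -0.22. SLC7A1, the cationic amino acid transporter, had 10.77, 10.68 and 10.83 with both ligands, against 11.43, 11.30 and 11.41 in untreated cells. Its arrays were fully apart, and the difference was -0.68 ± 0.08 (limma, adjusted p = 0.000572). SLC1A4 fell by 0.44, SLC1A5, the glutamine carrier, by 0.43, SLC3A2 by 0.39 in 3 of 3 probes and SLC38A1 by 0.35, and these 4 calls were lost without Untreated 1 (adjusted p between 0.114 and 0.173). SLC7A5, the leucine carrier, had -0.22 and SLC38A2 0.06, and neither passed. Of 25 tested aminoacyl-tRNA synthetases, the enzymes that charge tRNAs, 7 fell and 18 did not pass, with a median of -0.18. CARS1 fell by 0.53 and GARS1 by 0.44, and AARS1, NARS1, TARS1, MARS1 and WARS1 by between 0.27 and 0.33. All 7 of these calls were lost without Untreated 1 (adjusted p between 0.0646 and 0.384), that of NARS1 in 3 and those of AARS1, MARS1, TARS1 and WARS1 in 9 to 11 of the 12 fits that left out an array. Of 18 tested genes of serine, glycine and one-carbon metabolism 4 fell and 14 did not pass. PSAT1, which makes phosphoserine, fell by 0.68 ± 0.08, with 10.32, 10.28 and 10.32 under both ligands against 10.94, 11.06 and 10.91 in untreated cells, and the mitochondrial folate enzyme MTHFD2 fell by 0.43. PYCR1 (-0.43) and MAT2A (-0.42) lost their calls without Untreated 1 (adjusted p of 0.101 and 0.0705), whereas PHGDH, SHMT2, PSPH, SHMT1 and MTHFD1 did not pass.

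The unfolded protein response, a neighbouring programme run by IRE1, ATF6 and PERK in the endoplasmic reticulum, had 2 falls among 26 tested genes and a median of -0.08. That was a fallen share of 7.69% with no rise, against 3.12% fallen and 8.07% called in all over the tested genes. XBP1, the transcription factor spliced by IRE1, had 11.75, 11.65 and 11.83 with both ligands, against 12.42, 12.28 and 12.38 in untreated cells, a difference of -0.71 ± 0.09 (limma, adjusted p = 0.000597). HERPUD1, which helps to degrade misfolded proteins, fell by 0.69 ± 0.07 (limma, adjusted p = 0.00022). In both genes the groups were apart and both tested probes fell. The chaperones of the same compartment did not pass, with -0.07 for HSPA5, 0.07 for HSP90B1 and 0.09 for PDIA4. Of 23 cytosolic heat shock genes only AHSA1 fell (-0.35), a call lost without Untreated 1 (adjusted p = 0.145), and HSPA6, which was no member of that list, fell by 0.83 on 1 of its 2 tested probes.

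**Figure D3:**
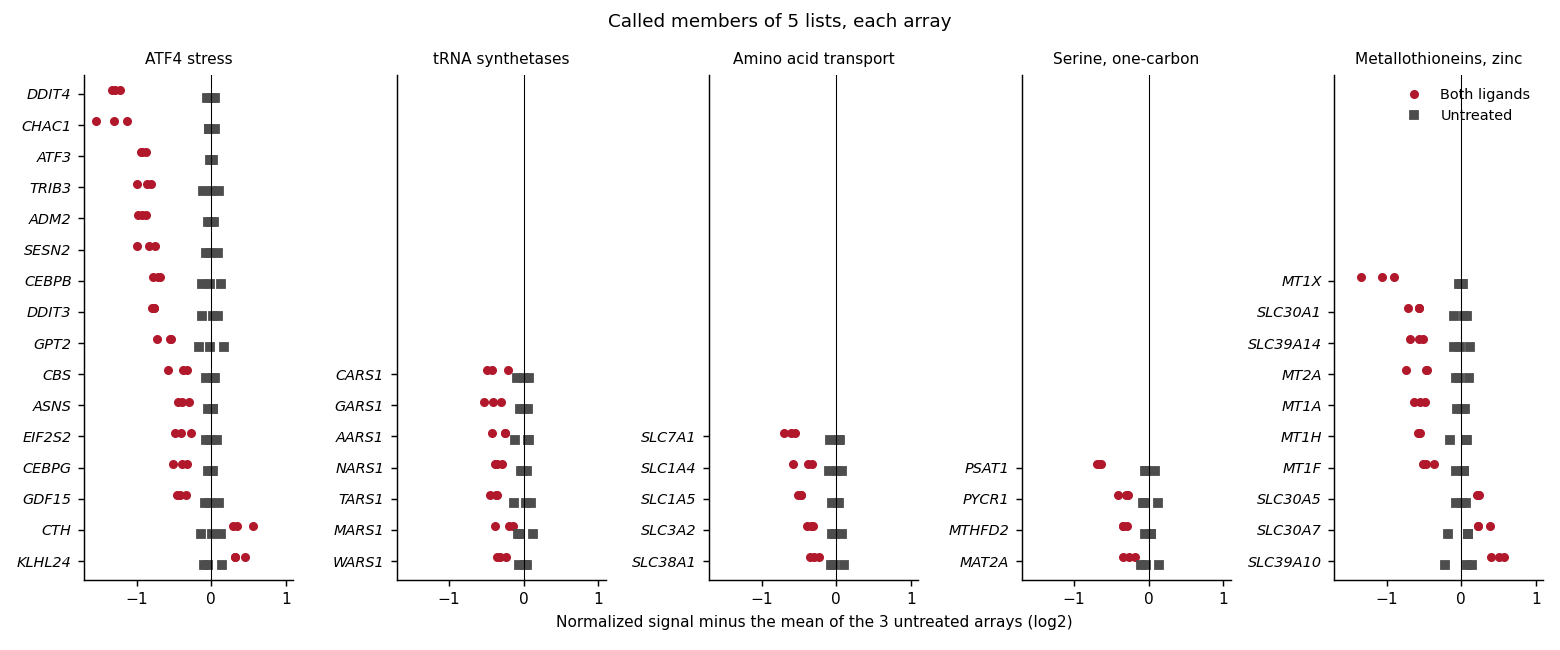
Normalized signal of each called member of 5 gene lists relative to the mean of the 3 untreated arrays (log2, x axis), 1 symbol per array, both ligands drawn above untreated cells. The combination arrays of DDIT4 and CHAC1 lie more than 1 log2 unit below the untreated mean, and the called transporters and tRNA synthetases lie below it by smaller steps, with MARS1 overlapping the untreated arrays.

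ATF4 and C/EBP factors bind together at the C/EBP-ATF response element, whose common letters TGATGNAA were looked for on both strands of RefSeq promoter windows (GRCh38.p14, 300 bases around a start). The stretches shown were chosen after the values were seen. Each belongs to a fallen gene of the ATF4, amino acid transporter, tRNA synthetase or unfolded protein response list. They are printed 5′ to 3′ on the strand that carries the element, which is in capitals.
CHAC1 (chr15:40953242-40953289, minus strand): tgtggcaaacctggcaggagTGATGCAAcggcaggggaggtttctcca
ATF3 (chr1:212565196-212565243, plus strand): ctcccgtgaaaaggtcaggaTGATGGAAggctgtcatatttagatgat
ASNS (chr7:97872449-97872496, minus strand): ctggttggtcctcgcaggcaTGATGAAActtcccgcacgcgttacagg
CEBPG (chr19:33374051-33374098, plus strand): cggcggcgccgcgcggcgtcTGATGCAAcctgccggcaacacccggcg
SLC7A1 (chr13:29595654-29595701, minus strand): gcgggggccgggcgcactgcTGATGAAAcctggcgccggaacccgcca
SLC1A5 (chr19:46784884-46784931, minus strand): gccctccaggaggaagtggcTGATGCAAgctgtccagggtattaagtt
CARS1 (chr11:3057398-3057445, plus strand): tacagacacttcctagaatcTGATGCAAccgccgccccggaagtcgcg
GARS1 (chr7:30594825-30594872, minus strand): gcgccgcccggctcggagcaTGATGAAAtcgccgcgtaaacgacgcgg
NARS1 (chr18:57621795-57621842, minus strand): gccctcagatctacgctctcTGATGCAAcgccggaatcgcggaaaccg
HERPUD1 (chr16:56931946-56931993, minus strand): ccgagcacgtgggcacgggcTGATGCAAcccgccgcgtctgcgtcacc

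The letters were present in a window of 29 of the 262 fallen genes with a window, 11.1%, in 13 of the 387 risen genes with a window, 3.36%, and in 227 of the 8074 tested genes with a window, 2.81%. Counted per window rather than per gene, 6.96% of the windows of fallen genes held them. The shares were 2.07% for risen genes, 2.07% for tested genes and 3.62% for all 35116 windows searched. All 5 fallen amino acid transporters had them (SLC7A1, SLC1A4, SLC1A5, SLC3A2 and SLC38A1), and 0 of the 7 tested transporters that did not fall. Among the synthetases they stood in 6 of 7 that fell, WARS1 being the exception, and in 2 of 13 with a window that did not fall. In the ATF4 list they stood in 4 of 12 fallen genes with a window (CHAC1, ATF3, ASNS and CEBPG) and in 2 of 13 others. Fallen genes outside these lists held the letters too, among them FCGR1A, IL21R and SPRED2. DDIT4, the gene with the largest fall, had no such letters in its window. Of 5 further motifs searched on both strands, the E-box CACGTG stood in 46 of 262 fallen and 32 of 387 risen genes with a window against 1052 of 8074 tested genes, the CCAAT box in 51.5% of fallen and 41.6% of risen genes against 44.2% of tested genes, the AP-1 letters TGANTCA in 10.3% and 9.3% against 6.65%, and the TCF/LEF letters CTTTGAT in 1.53% and 2.84% against 2.12%. A match is a description of these letters and not a bound site.

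Genes of metallothioneins, small proteins that bind zinc and copper, were among the falls, and so was the zinc exporter SLC30A1. Of 17 tested genes of the metallothionein and zinc list 7 fell and 3 rose. MT1X had 7.79, 7.35 and 7.63 with both ligands, against 8.70, 8.65 and 8.71 in untreated cells, a difference of -1.07 ± 0.12 (limma, adjusted p = 0.000362), and every combination array was lower than every untreated one. SLC30A1 fell by 0.70 in both of its tested probes, the importer SLC39A14 by 0.63 and MT1A by 0.58, and these 4 genes kept their calls whichever array was left out. MT2A (-0.62), MT1H (-0.47) and MT1F (-0.36) fell too, and the importer SLC39A10 (0.69) and the vesicle carriers SLC30A7 (0.43) and SLC30A5 (0.26) rose, but these 6 calls were lost without Untreated 1 (adjusted p between 0.0818 and 0.412), those of SLC30A7, MT1H and SLC30A5 in 3, 6 and 10 of the 12 fits without an array. SLC30A5 was called on 1 of its 4 tested probes. MTF1, the zinc sensor that drives metallothionein genes, had -0.10 and did not pass. Metallothionein genes are near-identical copies of each other, so their probes may share targets. The core of the metal response element that MTF1 binds was searched as TGCGCNC or TGCACNC on both strands, the second form being added after the first search. It stood in the windows of 4 of 4 fallen genes of the list that had one (MT1H, MT1X, MT2A and SLC30A1), against 48.5% of fallen, 48.8% of risen and 46.0% of tested genes. The window of MT1X, shown because it had the largest fall of the list, holds 4 matches in capitals, 1 of them on the opposite strand.
MT1X (chr16:56682220-56682519, plus strand): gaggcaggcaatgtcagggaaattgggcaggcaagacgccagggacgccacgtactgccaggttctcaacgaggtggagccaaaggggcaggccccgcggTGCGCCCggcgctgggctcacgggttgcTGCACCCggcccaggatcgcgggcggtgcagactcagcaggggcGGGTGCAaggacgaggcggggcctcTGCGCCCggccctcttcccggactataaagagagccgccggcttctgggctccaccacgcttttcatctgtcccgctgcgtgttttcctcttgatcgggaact

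Few of the tested genes of the Wnt pathway itself were called, and many on the array were not tested. Tested were 9 of 28 receptor and secretion genes and 13 of 25 genes of beta-catenin, TCF/LEF factors and the destruction complex. NKD1, an inhibitor that binds Dishevelled and is a common target of beta-catenin, had 5.94, 6.21 and 6.03 with both ligands, against 4.93, 5.03 and 5.16 in untreated cells, where it was not well above background on any array. It was at least 1.52-fold higher (limma, adjusted p = 0.000121). NKD2, its paralogue, had 7.53, 7.66 and 7.60 with both ligands, against 7.02, 7.00 and 7.02 in untreated cells, a difference of 0.66 ± 0.09 (limma, adjusted p = 0.00113). These were 2 of the 5 feedback inhibitors tested of 19 on the array. LRP5, the co-receptor, rose by 0.63 ± 0.08 on 1 of its 2 tested probes, with 7.79, 7.94 and 7.85 against 7.28, 7.30 and 7.19. WNT5A, the gene of a ligand that was added, fell by 0.41, a call lost without Untreated 1 (adjusted p = 0.282) and without the first or the third combination array, while the receptors RYK, FZD6 and FZD1 did not pass.

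Of 13 tested genes of beta-catenin, TCF/LEF factors and the destruction complex, only the corepressor TLE3 fell (-0.39), and its call was lost without Untreated 1 (adjusted p = 0.372) and in 5 of the 12 fits without an array. CTNNB1, which encodes beta-catenin, had -0.12 and LEF1 -0.23, and neither passed. Of 13 tested canonical target genes 4 fell and 2 rose, with a median of -0.23. CCND1, cyclin D1, had 5.56, 5.28 and 5.77 with both ligands, where it was detected on 2 of 3 arrays, against 6.84, 6.72 and 7.06 in untreated cells. The groups were apart, and the difference was -1.31 ± 0.15 (limma, adjusted p = 0.000325). MYC fell by 0.51 ± 0.07 in both tested probes, with 10.92, 10.94 and 10.91 under both ligands against 11.39, 11.44 and 11.41 in untreated cells (limma, adjusted p = 0.00117). VEGFA (-0.66), CCND2 (-0.32), MYCN (0.39) and ABCB1 (0.51) lost their calls without Untreated 1 (adjusted p between 0.0509 and 0.191), those of VEGFA and CCND2 in 3 of the 12 fits without an array. CD44 and SOX4 did not pass.

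Feedback genes of the ERK pathway, which growth factor signalling switches on to limit itself, fell more than they rose: 6 of 17 tested fell and 2 rose. ETV5, an ETS transcription factor, had 8.64, 8.62 and 8.87 with both ligands, against 9.91, 9.56 and 9.72 in untreated cells. All untreated arrays were higher, and the difference was -1.12 ± 0.10 (limma, adjusted p = 8.06e-05), with both tested probes falling. SH2B3, an adaptor that restrains cytokine signalling, fell by 0.62 ± 0.07. SPRED2 (-0.81), SPRED1 (-0.49) and the phosphatases DUSP6 (-0.75) and DUSP5 (-0.69) lost their calls without Untreated 1 (adjusted p between 0.0914 and 0.283), those of DUSP6 and SPRED1 in 2 and 7 of the 12 fits without an array. The inhibitor SPRY1 rose on all 3 of its probes, by 0.85, 0.54 and 0.37. The call of the first held whichever array was left out, and those of the others were lost without Untreated 1, for the second at an adjusted p of 0.143, and for the third in 3 of the 12 fits with adjusted p up to 0.361. SPSB1, an adaptor of a ubiquitin ligase, rose by 0.80 ± 0.10. Of 21 immediate early factors only KLF2 fell (-0.35), a call lost in 8 of the 12 fits without an array (adjusted p = 0.0729 without Untreated 1), and EGR1 (0.13), FOS (0.03) and JUNB (-0.19) did not pass.

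Chemokine genes were the list with the largest share of rises, 5 of 10 tested (of 28 on the array) and none fallen, with a median of 0.24. CCL3, undetected in untreated cells, passed the detection filter only through arrays with a ligand, so its part in this share is not independent of the filter. CCL3L3 had 7.15, 6.87 and 7.27 with both ligands, against 6.29, 6.10 and 6.24 in untreated cells, a difference of 0.90 ± 0.11 (limma, adjusted p = 0.000619). CCL4L1 had 6.57, 6.35 and 6.84 against 5.37, 5.50 and 5.55. CCL3 was at least 1.38-fold higher and not well above background in untreated cells. CCL3, CCL3L3, CCL4L1 and CCL4L2 belong to groups of near-identical copies, so their probes may read the same transcripts. CCL3, CCL3L3 and CCL4L1 each count separately among the 5 rises. CX3CR1, the fractalkine receptor, rose by 0.59 on 1 of its 2 tested probes, and CCL2 rose by 0.32, a call lost without Untreated 1 (adjusted p = 0.0674). CXCL8 (0.16), CCL5 (0.01) and CXCL2 (-0.35) did not pass.

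Among cytokines and their receptors 5 of 17 tested rose and 4 fell. IL1B, the inflammatory cytokine, had 7.90, 7.82 and 7.91 with both ligands, against 8.71, 8.67 and 8.53 in untreated cells, a difference of -0.84 ± 0.08 (limma, adjusted p = 8.06e-05) with the groups apart. CSF1R, the macrophage growth factor receptor, fell by 0.62 ± 0.10. IL3RA, the interleukin-3 receptor chain, rose by 0.90 ± 0.13 and was detected on 1 of 3 untreated arrays. IL10 (0.44), CSF2RA (0.43), IL18 (0.35), IL21R (-0.44) and TNFRSF1A (-0.41) lost their calls without Untreated 1 (adjusted p between 0.0644 and 0.294), those of CSF2RA and TNFRSF1A in 5 and that of IL21R in 9 of the 12 fits without an array. In the NF-kB list, with 2 rises and 2 falls among 23 tested genes, all 4 calls (BIRC2, BIRC3, BCL3 and TNF) were lost without Untreated 1 (adjusted p between 0.0717 and 0.248), those of BIRC2 and TNF in 9 of the 12 fits without an array, and NFKBIA, the feedback inhibitor, had 0.28 and did not pass. The shares of that list were 8.7% risen and 8.7% fallen, against 4.96% and 3.12% of all tested genes. CEBPA, a factor of granulocyte fate, was at least 1.23-fold higher with both ligands and not well above background in untreated cells.

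Of 22 tested regulators of G protein signalling and G protein receptors 4 rose, 3 fell and 15 did not pass, with a median of 0.04. The shares were 18.2% risen and 13.6% fallen, against 4.96% and 3.12% of all tested genes. RGS2, which shortens Gq signals, had 8.60, 8.72 and 8.69 with both ligands, against 7.79, 7.88 and 7.86 in untreated cells, a difference of 1.03 ± 0.12 (limma, adjusted p = 0.000389). GRK5, a kinase that desensitizes receptors, had 8.25, 8.09 and 8.27 against 7.23, 7.21 and 7.17, a difference of 0.97 ± 0.10 (limma, adjusted p = 0.000200). RGS12 (0.59) and GPR183 were the other rises, and all 4 kept their calls whichever array was left out. The 3 falls of that list, C5AR1 (-0.62), ARRB2 (-0.42) and GNA15 (-0.33), did not keep them without Untreated 1 (adjusted p between 0.0857 and 0.266), and GNA15 lost its call in 8 of the 12 fits without an array. Of 16 tested guidance genes 3 rose and 13 did not pass. Besides UNC5B and VASH1 this was EFNB1, ephrin B1, with 8.97, 8.90 and 8.94 under both ligands against 8.03, 7.86 and 7.96 in untreated cells, a difference of 0.99 ± 0.07 (limma, adjusted p = 2.24e-05).

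BMP and TGF-beta genes moved in both directions, with 6 rises and 3 falls among 23 tested. ID3, a BMP target that blocks differentiation factors, had 7.44, 7.62 and 7.73 with both ligands, against 6.95, 6.67 and 6.75 in untreated cells, a difference of 0.75 ± 0.10 (limma, adjusted p = 0.000773). SMAD6, an inhibitor of BMP receptors, rose by 0.55 ± 0.08, with 11.53, 11.43 and 11.45 against 10.96, 10.91 and 11.05. LRRC32, which docks latent TGF-beta on the cell surface, rose by 0.80 ± 0.11. ID1, the close relative of ID3, fell by 0.45. The calls of ID1, SMAD3 (-0.37), LTBP1 (-0.31), BMPR2 (0.70, 1 of 2 probes), TGFBI (0.30) and SMAD7 (at least 1.19-fold higher) were lost without Untreated 1 (adjusted p between 0.0717 and 0.254), that of BMPR2 in no other fit and the rest in 2 to 10 of the 12 fits without an array.

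Transcription factors of the megakaryocyte and erythroid lineage fell more often than they rose, 5 against 1 of 24 tested. GFI1B, a repressor needed for platelets and red cells, had 9.85, 9.64 and 9.83 with both ligands, against 10.56, 10.59 and 10.57 in untreated cells. The groups were apart, with a difference of -0.85 ± 0.09 (limma, adjusted p = 0.00021). GATA2 (-0.43), HHEX (-0.33), TAL1 (-0.28) and MYB (-0.27) fell and MECOM (0.47) rose, but these 5 calls were lost without Untreated 1 (adjusted p between 0.118 and 0.202), those of HHEX, TAL1 and MYB in 3, 10 and 11 of the 12 fits without an array. GATA1 (-0.03), NFE2 (-0.01), FLI1 (0.07) and RUNX1 (-0.12) did not pass.

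Of 22 tested platelet receptors 2 fell and 20 did not pass, a fallen share of 9.09% against 3.12% of all tested genes. GP1BA, the von Willebrand factor receptor chain, fell by 0.43 and TBXA2R, the thromboxane receptor, fell by 0.40, and both calls were lost without Untreated 1 (adjusted p of 0.113 and 0.136). ITGA2B (-0.19), ITGB3 (-0.01), GP9 (-0.08), GP1BB (0.02) and F2R (0.14) did not pass. Among 24 granule and secreted proteins TIMP3 (-0.55) and THBS1 (-0.28) fell and SPARC (0.47) rose, and all 3 calls were lost without Untreated 1 (adjusted p between 0.0822 and 0.375), those of SPARC and THBS1 in 8 and 11 of the 12 fits without an array. The shares of that list were 8.33% fallen and 4.17% risen, against 3.12% and 4.96% of all tested genes. Of 38 proplatelet cytoskeleton genes 4 fell (10.5%) and 1 rose (2.63%). The actin regulator VASP fell by 0.56, tropomyosin TPM4 by 0.50 on 1 of 2 probes, vinculin VCL by 0.37 and the formin DIAPH1 by 0.26, and ABLIM1 rose by 0.39. These 5 calls were lost without Untreated 1 (adjusted p between 0.0857 and 0.252), that of DIAPH1 in 10 of the 12 fits without an array. TUBB1, the platelet tubulin, had -0.01 and MYH9 0.02.

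Genes of survival and growth changed in small numbers. BCL2, the survival protein, had 7.62, 7.80 and 7.68 with both ligands, against 8.24, 8.43 and 8.48 in untreated cells, a difference of -0.56 ± 0.08 (limma, adjusted p = 0.00187). BMF, a protein that opposes BCL2, had 8.72, 8.80 and 8.81 against 8.18, 8.05 and 8.13, a difference of 0.64 ± 0.07 (limma, adjusted p = 0.000343). Both tested probes of each gene moved the same way. BCL2L1, the megakaryocyte survival factor BCL-XL, fell by 0.48, a call lost without Untreated 1 (adjusted p = 0.0929), and MCL1 (-0.24) did not pass. In ribosome biogenesis, which MYC drives, 6 of 36 tested genes fell and none rose, with a median of -0.18. Of these WDR43 (-0.52) kept its call whichever array was left out, while NOLC1 (-0.55), BYSL (-0.46), PPAN (-0.36), DKC1 (-0.34) and RRS1 (-0.30) lost theirs without Untreated 1 (adjusted p between 0.0525 and 0.295), those of DKC1 and PPAN in 2 and 6 of the 12 fits without an array. Of 36 mitotic genes BUB1 (0.52), ASPM (0.38) and CENPF (0.35) rose and KIF4A (-0.33) fell, the last 3 with calls lost without Untreated 1 (adjusted p between 0.122 and 0.366), those of KIF4A and CENPF in 4 and 7 of the 12 fits without an array. The mitotic shares were 8.33% risen and 2.78% fallen, against 4.96% and 3.12% of all tested genes.

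The other falls among the 15 largest were in genes of several kinds. TRIM71, an RNA-binding regulator of early embryonic cells, had 5.03, 5.26 and 5.54 with both ligands, where it was detected on 1 of 3 arrays, against 6.25, 6.01 and 6.09 in untreated cells, a difference of -1.02 ± 0.14 (limma, adjusted p = 0.000925). MYEOV fell by 0.96 ± 0.09, with 6.15, 6.27 and 6.11 under both ligands against 7.01, 7.25 and 7.16 in untreated cells, and ANKRD55 fell by 0.83 on 1 probe and by 0.67 on another. In the stem and progenitor list, with 4 falls of 18 tested, the homeobox gene IRX3 fell by 0.72 ± 0.09, with 9.09, 8.85 and 9.11 against 9.77, 9.71 and 9.81. Among markers of other blood cells PRF1, the pore-forming protein of killer lymphocytes, fell by 0.69 ± 0.09, and LILRB1, an inhibitory receptor of monocytes, by contrast rose by 0.48 ± 0.08. The adhesion molecule ICAM2 fell by 0.58 ± 0.08. The groups did not overlap in these 7 genes, and their calls held whichever array was left out, for ANKRD55 by its probe with the larger fall. The other falls of the stem and progenitor list, IRX5 (-0.47) and FOXA2 (-0.33), lost their calls without Untreated 1 (adjusted p of 0.0799 and 0.356), FOXA2 in 4 of the 12 fits without an array. Of 12 tested monocyte and granulocyte markers 4 fell and 2 rose. The falls were CSF1R (-0.62), FCGR1A (-0.62, detected on 1 of 3 combination arrays), CEBPD (-0.37) and CD33 (-0.27), of which the last 3 lost their calls without Untreated 1 (adjusted p between 0.154 and 0.386) and in 4 to 9 of the 12 fits without an array.

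Glucose and oxygen genes showed single changes. SLC2A3, a glucose transporter, had 13.01, 13.01 and 13.10 with both ligands, against 13.47, 13.48 and 13.55 in untreated cells, a fall of 0.44 ± 0.07 on the log2 scale (limma, adjusted p = 0.00236). SLC16A3, a lactate exporter, rose by 0.45 ± 0.07. Hexokinase HK2 fell by 0.59 in both probes, a call lost without Untreated 1 (adjusted p = 0.0729), and LDHA (-0.02) and SLC2A1 (0.01) did not pass. Of 20 tested hypoxia genes 2 rose (10%), 3 fell (15%) and 15 did not pass, against 4.96% risen and 3.12% fallen of all tested genes. EPAS1, the hypoxia factor HIF-2 alpha, rose by 0.62 ± 0.07 and the target NDRG1 by 0.38, and BNIP3 (-0.46), ANKRD37 (-0.52) and VEGFA fell. The call of NDRG1 was lost without Untreated 1 (adjusted p = 0.165) and without the third combination array, and that of VEGFA without Untreated 1 (adjusted p = 0.141) and in 3 of the 12 fits.

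Of the 52 gene lists, 44 had at least 1 called member, 9 with rises only and 12 with falls only. The lists held 1163 tested entries, and 8.07% of all tested genes were called. A called member by itself therefore does not set a list apart. Without Untreated 1, 15 of the 44 lost every call and 29 kept at least 1. The 8 lists with none held 251 tested genes and included 50 cytosolic ribosomal proteins, 40 respiratory chain and TCA cycle genes and 18 housekeeping genes.

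**Figure D4:**
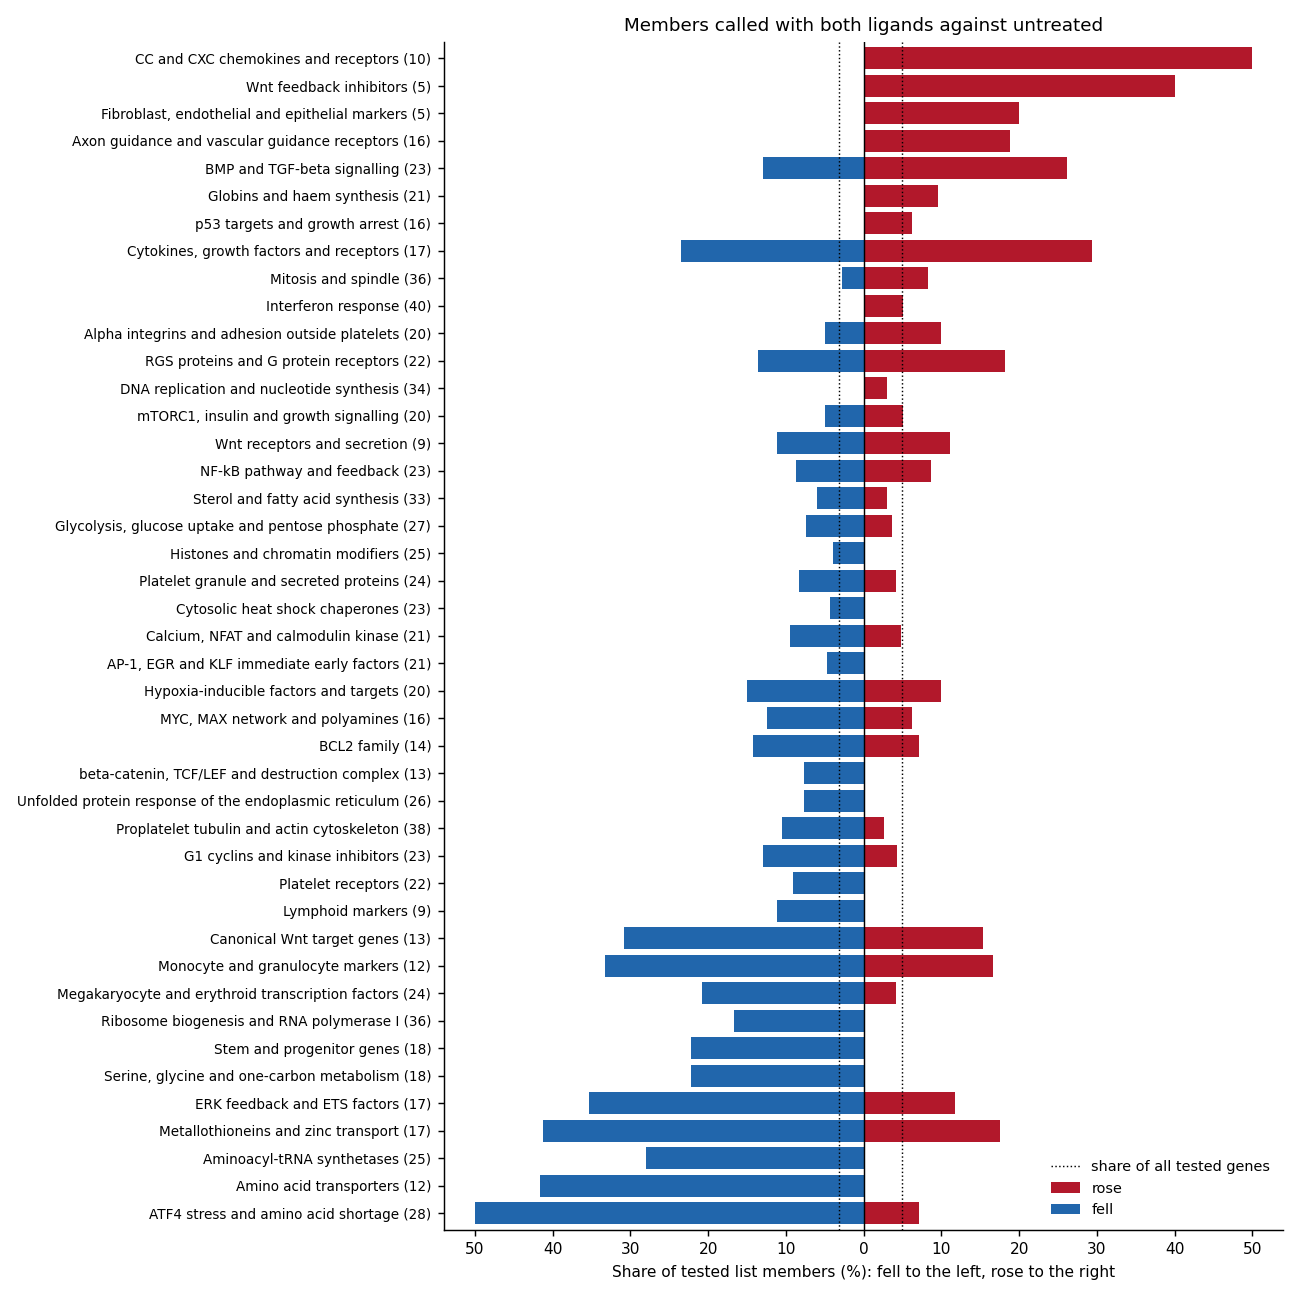
Share of tested members (%) that rose (right) or fell (left) in the gene lists reported here that had a called member, with the number tested in brackets. Dotted lines mark the shares over all tested genes, 4.96% risen and 3.12% fallen. The ATF4 list has 50% fallen and the chemokine list 50% risen. The lists were chosen with earlier results of these data known.

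The arrays with each ligand alone allow the combination to be placed beside its parts. Against untreated cells, in the same fit, 213 probes passed with Wnt3a alone (1.52% of those tested, 0.947% higher and 0.569% lower) and 737 with Wnt5a alone (5.25%, 2.92% higher and 2.33% lower). These comparisons share the untreated arrays with that of the combination, so the values are given side by side. For DDIT4 the difference was -1.39 with both ligands, -0.42 with Wnt3a alone and -1.14 with Wnt5a alone. For HAVCR2 it was 1.98, 0.11 and 1.85 in the same order, and for RGS2 1.03, -0.29 and 0.90. For LRRC75A the order was different, with 1.31 for both ligands, 1.66 for Wnt3a alone and 0.14 for Wnt5a alone.

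Set directly against each ligand alone, the combination differed from Wnt3a in 648 probes (4.61%; 2.78% higher, 1.84% lower) and from Wnt5a in 17 probes (0.121%), all 17 higher. Without the first Wnt3a array, which lay on the second BeadChip, 86 probes differed from Wnt3a. Of the 30 named genes, 14 of the 15 rises were also higher than with Wnt3a alone and 11 of the 15 falls lower, while 2 rises, PTH2 and LRRC75A, and no fall differed from Wnt5a alone. These counts share the combination arrays with the comparison that chose the genes. PTH2 was higher in the combination than with either ligand, by 0.75 ± 0.09 over Wnt3a (limma, adjusted p = 0.00092) and by 0.95 ± 0.09 over Wnt5a (limma, adjusted p = 0.00104), and its difference from untreated cells was 2.32 with both ligands, 1.57 with Wnt3a and 1.37 with Wnt5a. Both calls held whichever array was left out.

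EPAS1 and SPRY1 differed in opposite directions with the single ligands, and the combination lay between. EPAS1 differed from untreated cells by 0.62 with both ligands, by 1.50 with Wnt3a alone and by -0.46 with Wnt5a alone. The combination was lower than Wnt3a by 0.87 ± 0.07 (limma, adjusted p = 6.51e-05) and higher than Wnt5a by 1.08 ± 0.07 (limma, adjusted p = 2.49e-05), whichever array was left out. By its brightest probe SPRY1 differed by 0.54 with both ligands, 1.11 with Wnt3a alone and -0.35 with Wnt5a alone, all 3 of its probes being higher in the combination than with Wnt5a. Its difference from Wnt3a was lost without the first Wnt3a array (adjusted p = 0.178). Among other genes, NKD1 was higher in the combination than with Wnt5a alone (limma, adjusted p = 0.00262). So was EFNB1 (0.55, adjusted p = 0.00723), a call that was lost without the second Wnt5a array (adjusted p = 0.15). Neither NKD1 nor EFNB1 passed against Wnt3a alone (limma, adjusted p of 0.0723 and 0.69).

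**Figure D5:**
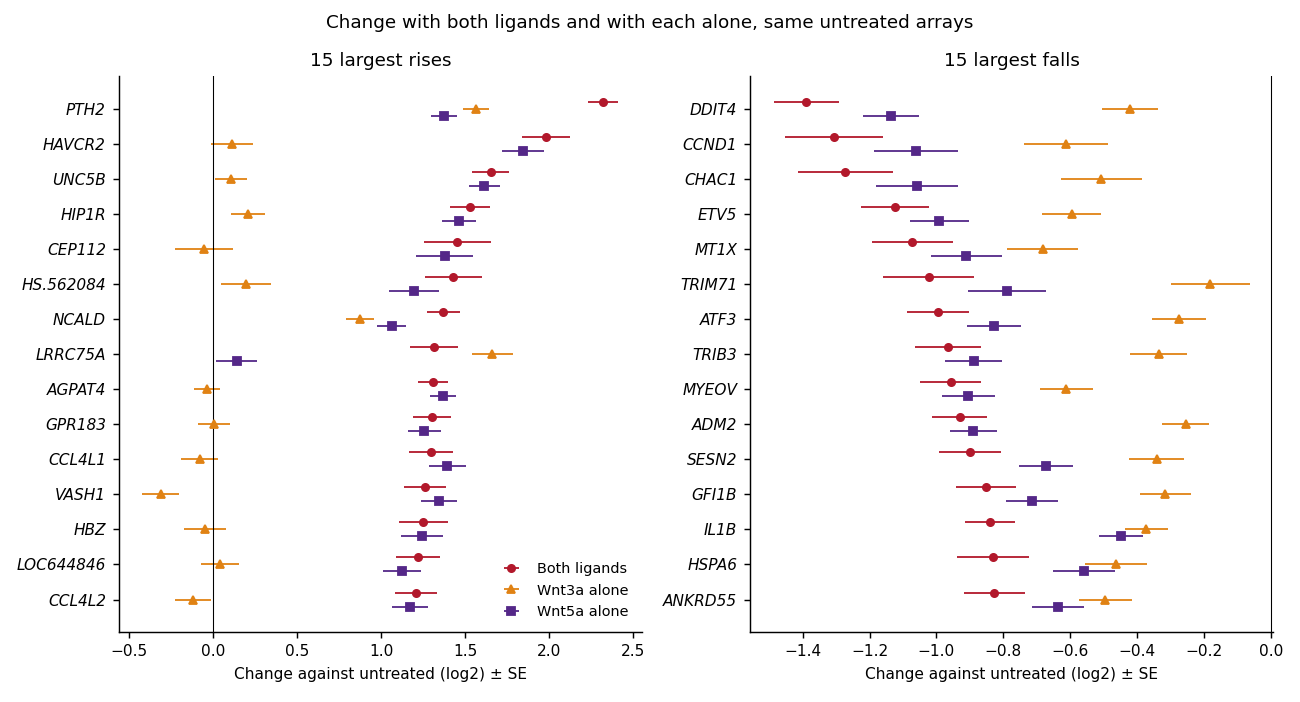
Difference from untreated cells (log2 ± SE, x axis) of the 30 named genes with both ligands, with Wnt3a alone and with Wnt5a alone, all against the same untreated arrays, whose 3 values are shared by the 3 differences. HAVCR2 (1.98 with both, 0.11 with Wnt3a, 1.85 with Wnt5a) and LRRC75A (1.31, 1.66 and 0.14) show opposite orders of the single ligands, and PTH2 (2.32, 1.57 and 1.37) lies beyond both.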

How the data were processed

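The authors deposited a signal per probe and array, an intensity that was not normalized, per the file headers, and a detection score, a fraction that ran opposite to a p-value, so that detection p was taken as 1 minus it. They also deposited a log2 value table, used only as an alternative. The submitters' processing notes name lumi, and its version and role are not given in the sources used here.

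Background was corrected by normexp (negative controls inferred from the detection p, offset 16), and quantile normalization and log2 followed, with limma 3.58.1 in R 4.3.3. Of 48803 probes, 14051 with a score above 0.99 on at least 3 of 12 arrays were tested, for 11059 genes. Symbols came from the platform annotation (updated through RefSeq) for 11775 probes and from the deposited file for 2274, PTH2, AGPAT4, CCL4L1, CCL4L2, CEP112, ADM2 and HERPUD1 included. 1 linear model held 4 group means and a BeadChip term (residual degrees of freedom 7, with 5.04 added by the prior). P-values are two-sided, with Benjamini-Hochberg adjustment at 0.05. Differences are BeadChip-adjusted, whereas array values and bounds are not. The arrays' number limits the precision. The same fit was run on simulated data with independent normal noise and the fitted BeadChip effect. That run cannot test whether the arrays are independent.

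Named genes were the 15 largest rises and falls among called probes with 1 symbol and with BeadChip-adjusted values that did not overlap, 1 probe per gene (the brightest called), and, in each list, up to the 6 called members with the largest differences and marked anchor genes (brightest tested probe). Other genes named, such as further called members of a list, were chosen after their values were seen. The members, lists and rules were chosen with earlier results of these data known. The motif search was added after values were seen. It first used only genes with a single start and then any window of a gene. Some items are not reported here. Values of the left-out arrays keep the normalization of all 12 arrays.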

Additional observations from a re-analysis of the deposited data

How the results depend on the processing

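All 30 genes with the largest changes kept their call under every alternative run except the second BeadChip alone, where 20 did, and with each array left out their highest adjusted p was 0.0252. 22 of the 30 had differences over 1.5 times smaller in the authors' value table. Fitted differences were 1.12 to 5.25 times the plain mean differences of that table, with the same sign in all 30. For PTH2 the 2 values were 2.32 and 1.28, and for TRIM71 -1.02 and -0.195. The size of the changes therefore depends on the processing. Against untreated cells 1092 probes passed. That became 520 with no filter on dim probes, where many more probes were tested, 61 on the second BeadChip alone and 224 with only the 6 arrays compared, both with fewer arrays. Leaving out each array in turn gave 238 to 1317. The 918 calls with a replicate block, 848 without the BeadChip term, 861 with it as a random block, 753 with median scaling, 1437 without background correction, 1296 in the authors' table, 1149 with detection on all 3 arrays of a group and 1443 with trend and robust settings were within 1.5 times of the main count. Correlations of same-numbered combination and untreated arrays, as deviations from group means, were 0.0646, 0.273 and 0.0978. Those of differently numbered arrays were not computed, so these values cannot settle whether the numbers pair the samples. The main fit used no pairing. Median scaling moved the share of calls that were higher to 66.9% from 57.2%. Against Wnt3a alone, where 648 passed, the counts were 1108 without background correction, 371 with median scaling, 991 in the authors' table, 269 with no filter, 397 without the BeadChip term, 413 with it as a random block, 9 on the second BeadChip alone and 1115 with trend and robust settings, and leaving out each array gave 86 (the first Wnt3a array) to 882. Against Wnt5a alone, where 17 passed, they were 34 without background correction, 36 with trend and robust settings and 0 on the second BeadChip alone, and leaving out each array gave 11 (the second Wnt5a array) to 18. The cause of these shifts was not tested. ASNS reversed to 0.19 (adjusted p = 0.653) with all probes of a gene averaged. Of 182 called genes in the lists or among the 30, 105 lost their call without Untreated 1, the only untreated array on the combination's BeadChip.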

Other observations

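Genes of several families outside the lists also changed, chosen here after their values were seen. Of the potassium leak channels, KCNK17 fell by 0.79 ± 0.09 on the log2 scale (limma, adjusted p = 0.000343) and KCNK5 by 0.63 ± 0.07 (limma, adjusted p = 0.000375), and both calls held whichever array was left out. KCNK6 fell by 0.64 on 1 of 2 probes, a call lost without Untreated 1 (adjusted p = 0.0857). ATP1B1, the beta subunit of the sodium pump, rose on all 3 of its probes, by 1.06, 1.08 and 0.84, whichever array was left out.

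The receptor tyrosine kinase FGFR3 rose by 0.97 ± 0.09 (limma, adjusted p = 8.27e-05) and the collagen COL6A3 by 0.82 and 0.73 on its 2 probes. AIM2, a sensor of cytosolic DNA, rose by 0.85 ± 0.12. WT1, a transcription factor active in leukaemias, fell by 0.62 and 0.69 on its 2 probes, and HBEGF, a growth factor of the EGF family, by 0.63 ± 0.08. These calls held whichever array was left out. The survival kinases PIM1 and PIM2 fell by 0.66 and 0.63, the call of PIM1 being lost without Untreated 1 (adjusted p = 0.0632). FCGR2A, the immunoglobulin receptor of platelets and monocytes, fell on all 3 probes, by 0.61, 0.53 and 0.43, of which only the first call held without Untreated 1.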
